A study of Mus musculus with 10 samples.

Results

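The transcripts described here are 10 members of 2 families of calcium-binding proteins, the annexins Anxa1 to Anxa6 and the S100 proteins S100a4, S100a6, S100a10 and S100a11. They were taken by symbol from a table of 22815 gene symbols, and all 10 were found in it. The samples were mast cells of the lower airway, obtained by flow sorting from C57BL/6 wild-type mice 5 to 7 weeks old and profiled in bulk. The cells came as a B7hi and a B7low population. The series title speaks of inducible and constitutive mast cells, without tying these names to the populations. In published use B7 in such names is integrin β7. The 4 groups were B7hi cells from mice given saline (PBS) into the nose (n = 2), B7low cells from mice given saline (n = 2), B7hi cells from mice given an extract of house dust mite (HDM, n = 3) and B7low cells given HDM (n = 3). HDM mice received 3 µg of the extract, an allergen preparation, in 20 µL, 2 times a week for 3 weeks. Whether replicates were separate animals or pools is not in the labels. The p-values therefore measure only how these libraries vary, and that variation may be technical.

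Annexins bind negatively charged phospholipids when calcium rises, through a core of repeated domains that they share, and so attach to the inner face of membranes. S100 proteins are small, mostly dimeric proteins with a pair of EF-hand calcium sites, which expose a binding surface for partner proteins when loaded. The families meet in defined complexes: an S100A10 dimer joins 2 annexin A2 molecules, and S100A11 binds annexin A1. The annexin A2 complex is known for linking membranes to actin, for membrane repair, for exocytosis and for binding plasminogen at the cell surface. Mast cells release granules on a calcium signal.

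Libraries held 525983 (B7hi HDM 2) to 1725818 (B7hi saline 2) counts. CPM are counts scaled to library size with TMM factors. A count of 0 allows a level of up to 5.87 CPM in the shallowest library and 1.57 CPM in the deepest (3 counts, for counting error alone). The 8 fixed mast cell markers all had counts in every group, with sums of 13600 to 30649 CPM in the B7hi libraries and 48369 to 93618 CPM in the B7low libraries. B7low saline 2 and B7hi HDM 2 stand apart from the other libraries, with the 2 lowest totals and with the nuclear RNA Kcnq1ot1 at 6956 and 12133 CPM against at most 2794 CPM elsewhere, so counts of calls are also given without both. Of the 10 members, 8 passed the count filter and were tested. Anxa3 and S100a4 did not pass it and are described from their counts.

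**Figure D1:**
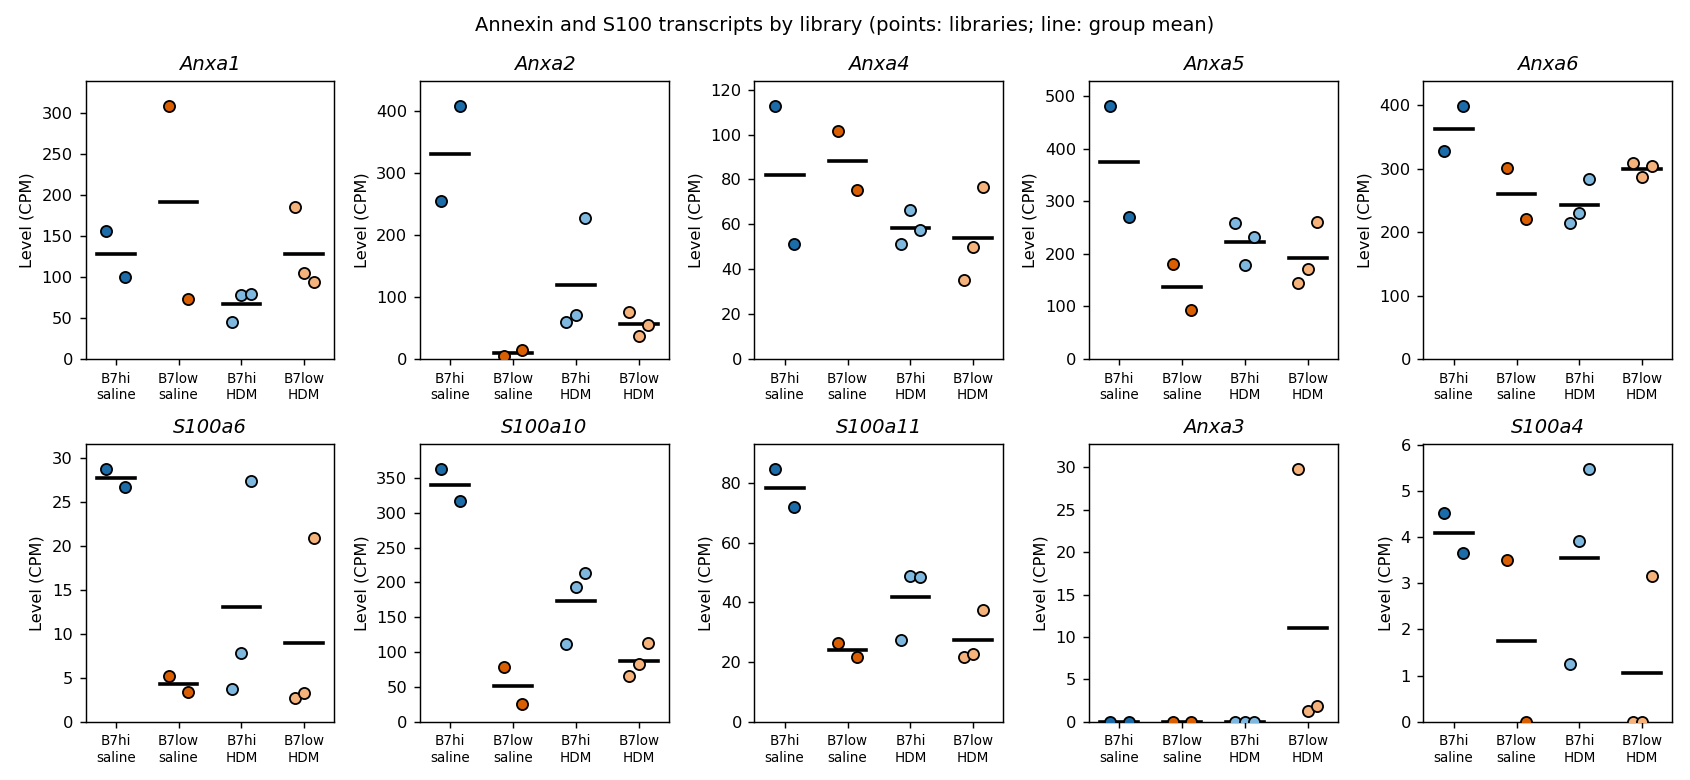
Levels of the 10 transcripts in each library, in CPM, with 1 point per library and a line at the group mean. Anxa2, Anxa5, Anxa6, S100a10 and S100a11 were higher in both B7hi saline libraries than in any other library, while Anxa1 and Anxa4 were not.

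The first comparison sets B7hi beside B7low cells without allergen. Anxa2, its partner S100a10, S100a11 and Anxa5 were higher in B7hi. The remaining tested annexins, Anxa1, Anxa4 and Anxa6, did not pass the test. In all, 4 of the 8 tested members passed at an adjusted p under 0.05, all higher (edgeR quasi-likelihood test, Benjamini-Hochberg over 10533 genes), where 2.91% of all tested genes were called higher and 3.64% lower. At an unadjusted p under 0.05 it was 5 of 8, with S100a6, and 21.2% of all genes. The median log2 difference of the 8 members was 1.58, beside 0.03 over all tested genes. The members were chosen with earlier results of these data known, so these shares describe the set and do not test it. In these bulk samples a smaller share of cells with a transcript and less of it per cell cannot be told apart.

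Anxa2, the annexin of the complex with S100A10, lies on chromosome 9 (69453620 to 69491795, plus strand, GRCm38) and carried the largest difference of the set. Its level was 254 and 407 CPM in the 2 B7hi saline libraries and 5.25 and 15.1 CPM in the 2 B7low saline libraries. These B7low levels rest on 3 and 9 counts, against 336 and 780 counts in B7hi. The fitted log2 difference was 5.00 ± 0.78 (SE), a fold of 32 (edgeR adjusted p = 0.0030). The call was lost without B7low saline 1 (adjusted p = 0.051) and with limma-voom (adjusted p = 0.14), with log2 differences of 4.49 and 5.02.

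S100a10, whose product is locked in an active form without calcium, was at 363 and 316 CPM in B7hi saline and at 78.7 and 25.1 CPM in B7low saline. The groups did not overlap, and the log2 difference was 2.71 ± 0.46 (SE, edgeR adjusted p = 0.0022). It was the member whose call held in all 20 alternatives run, with an adjusted p of at most 0.029. The partners were not ordered alike within B7low saline: B7low saline 1 held less Anxa2 and more S100a10 than B7low saline 2.

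S100a11, a partner of annexin A1, was at 84.6 and 72.0 CPM in B7hi saline and at 26.2 and 21.7 CPM in B7low saline (log2 difference 1.70 ± 0.45 SE, edgeR adjusted p = 0.031). Of the 25-base sequences in its transcripts, 48.9% also occur in the processed pseudogene Gm12854, so short reads of this pair cannot be fully told apart. The call was lost when any 1 of the 4 saline libraries was left out, with an adjusted p of up to 0.19.

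Anxa5 (chromosome 3, 36448923 to 36475894, minus strand), the annexin whose protein is used as a probe for exposed phosphatidylserine, was at 481 and 269 CPM in B7hi saline and at 180 and 93.6 CPM in B7low saline. The log2 difference was 1.45 ± 0.38 (SE, edgeR adjusted p = 0.032). It was lost without B7hi saline 1, B7low saline 2 or B7low HDM 2, at an adjusted p of up to 0.33. Without both B7low saline 2 and B7hi HDM 2, 2 members (Anxa2 and S100a10) stayed called. The same number passed without B7hi saline 1, B7low saline 1 or B7low saline 2 alone, and 2 with limma-voom or with only the saline groups in the fit.

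S100a6, a small S100 protein that binds cytoskeletal and ubiquitin ligase partners, was at 28.7 and 26.6 CPM in B7hi saline and at 5.25 and 3.34 CPM in B7low saline. The groups did not overlap, but the B7low values rest on 3 and 2 counts. The log2 difference was 2.66, with an approximate 95% interval of 0.49 to 4.84 and an adjusted p of 0.18 (edgeR), but it passed with the replicate number as a block (adjusted p = 0.0496) and with no count filter (0.0346). S100a4, which binds non-muscle myosin, had 13 counts in B7hi saline and 2 in B7low saline, at or near the limit of these depths. Of the 25-base sequences in its transcripts, 49.7% also occur in Gm42674, which overlaps its exons on the same strand. Short reads of that pair cannot be fully told apart.

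Anxa1, the glucocorticoid-induced annexin that acts outside cells through formyl peptide receptors, was at 156 and 99.7 CPM in B7hi saline and at 308 and 73.6 CPM in B7low saline. The B7low libraries lay on both sides of the B7hi libraries, and the log2 difference of −0.58 had an interval of −1.65 to 0.50. Anxa4, an annexin of secretory epithelia and other cells, differed by −0.12 (−0.94 to 0.70). Anxa6, which has a doubled core, was at 327 and 398 CPM in B7hi and at 301 and 221 CPM in B7low (log2 difference 0.48, interval −0.05 to 1.01, adjusted p = 0.33). In 6 of the 8 tested members the saline groups did not overlap with B7hi higher, where 28.5% of all tested genes showed that.

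**Figure D2:**
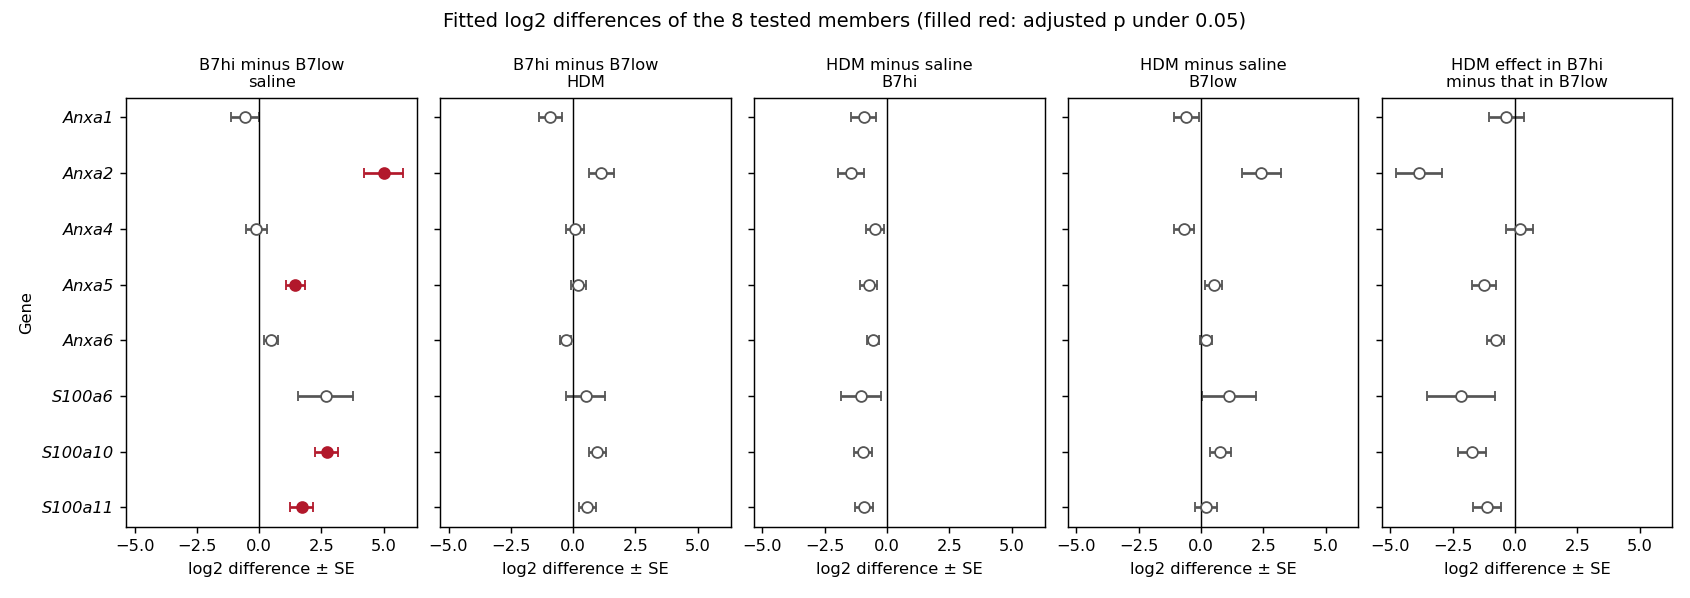
Fitted log2 differences (x axis) with their SE for the 8 tested members (y axis) in 5 comparisons. Filled red points passed at an adjusted p under 0.05, which was the case for Anxa2, Anxa5, S100a10 and S100a11 between the populations with saline and for none in the other panels.

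Starts of the genes were compared for short motifs, since 4 members differed together. RefSeq promoter windows on GRCm38.p6 were found for 7 of the 10 members. Shown are the 250 bases before the RefSeq start of the 3 called members that have a window and of Anxa1, which was not called. Capitals mark TGANTCA, the site bound by AP-1 factors, and TATAAA, the TATA box, searched on both strands. The windows are chr9:69453433-69453682 (plus strand) for Anxa2, chr3:93520246-93520495 (plus) for S100a11, chr3:36475888-36476137 (minus) for Anxa5 and chr19:20390672-20390921 (minus) for Anxa1, each printed 5′ to 3′ on the gene's strand.
Anxa2: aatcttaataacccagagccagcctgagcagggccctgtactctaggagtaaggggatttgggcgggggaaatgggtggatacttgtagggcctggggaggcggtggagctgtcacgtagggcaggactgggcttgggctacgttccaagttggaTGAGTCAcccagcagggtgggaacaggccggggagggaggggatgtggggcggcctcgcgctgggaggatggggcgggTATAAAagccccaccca
S100a11: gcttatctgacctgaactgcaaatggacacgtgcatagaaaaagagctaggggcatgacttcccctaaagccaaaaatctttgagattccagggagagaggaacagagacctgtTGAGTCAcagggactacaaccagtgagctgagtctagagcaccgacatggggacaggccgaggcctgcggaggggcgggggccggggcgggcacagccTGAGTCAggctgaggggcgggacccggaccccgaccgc
Anxa5: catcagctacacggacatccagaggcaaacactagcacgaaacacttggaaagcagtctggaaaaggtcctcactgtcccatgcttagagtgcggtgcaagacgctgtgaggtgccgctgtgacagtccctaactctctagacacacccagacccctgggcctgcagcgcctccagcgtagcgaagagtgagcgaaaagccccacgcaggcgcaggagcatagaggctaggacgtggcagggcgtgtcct
Anxa1: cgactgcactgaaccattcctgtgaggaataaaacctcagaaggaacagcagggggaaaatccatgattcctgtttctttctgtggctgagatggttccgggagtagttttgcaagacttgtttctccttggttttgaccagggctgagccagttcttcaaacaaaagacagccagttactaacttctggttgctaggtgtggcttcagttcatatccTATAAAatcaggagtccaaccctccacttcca

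TGANTCA occurred 1 time before Anxa2, starting 95 bases upstream, and 2 times before S100a11, at 136 and 38 bases. It was not found before Anxa5, Anxa1, Anxa4, S100a4 or S100a6, and 6.75% of the 32851 windows of the same length hold it. TATAAA lay 17 bases before the RefSeq start of Anxa2, 32 before that of Anxa1 and 31 before that of S100a4, and 12.4% of windows hold it. GENCODE and RefSeq starts differ. The GENCODE gene of Anxa2 begins at 69453620, so the end of its window, with TATAAA, lies inside that gene. For Anxa1 it begins at 20390944 on the minus strand, so the whole window lies inside the gene. GGGCGG, the GC box, was found 3 times each before Anxa2 and S100a11 and in 32.7% of windows. CCAAT was found before S100a6 alone, on the other strand, and in 33.8% of windows. None of these motifs overlapped another. A match is a description of letters, not of binding.

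Levels of different genes were compared per kilobase of exon. In B7hi saline, S100a10 led at 280 CPM per kb, followed by Anxa5 at 211, S100a11 at 153, Anxa6 at 124 and Anxa2 at 88.6 CPM per kb. The ranges of S100a10 and Anxa5, and of Anxa5 and S100a11, overlapped. In B7low saline, Anxa6 at 89.0 and Anxa5 at 77.0 CPM per kb led, with Anxa1 at 65.5, S100a11 at 46.9 and S100a10 at 42.8 CPM per kb, and each overlapped the next. Anxa2 was at 2.72 CPM per kb there, overlapping S100a4 at 2.99 CPM per kb and below all members except Anxa3, which had no count. With HDM, S100a10, Anxa5, Anxa6 and S100a11 were the highest 4 in both, from 142.6 down to 81.6 CPM per kb in B7hi and from 108 down to 53.3 CPM per kb in B7low.

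**Figure D3:**
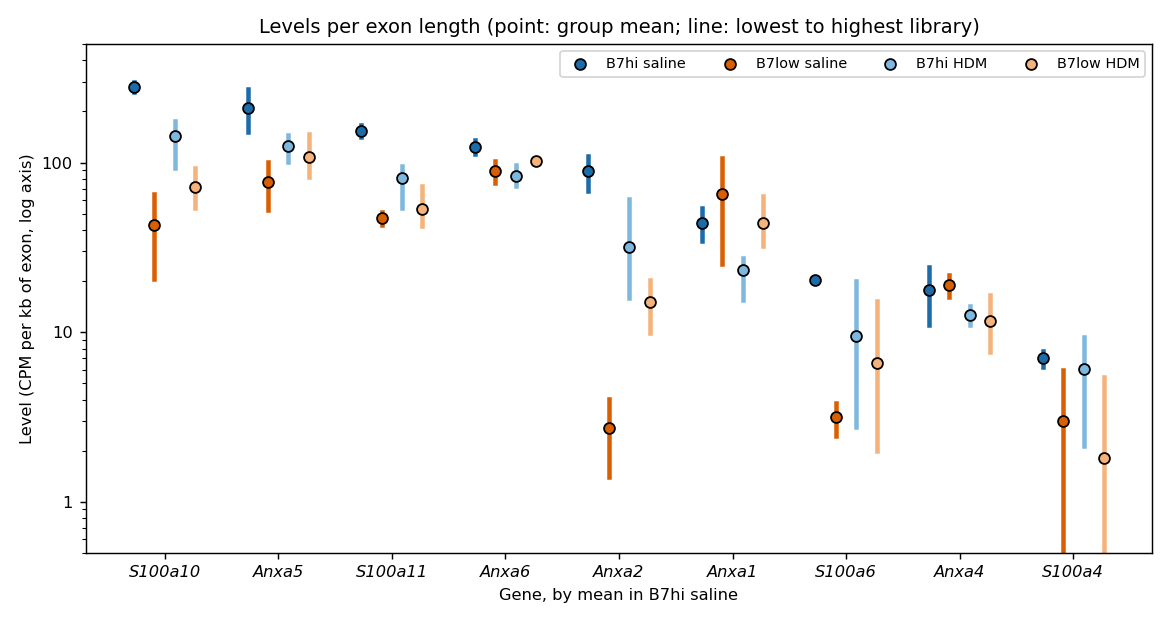
Group mean level (point) and range over libraries (line) in CPM per kb of exon on a log axis, for the 9 members other than Anxa3. Lines of S100a4 that reach the axis extend to 0. Anxa2 spans 2.72 CPM per kb in B7low saline to 88.6 CPM per kb in B7hi saline, the widest span of group means plotted.

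The next comparison sets the populations side by side after HDM. No member passed the test: 0 of 8 with edgeR, with DESeq2 and with limma-voom, and 2 (Anxa2 and S100a10) at an unadjusted p under 0.05. Over all tested genes, 2.84% were called and 13.6% had an unadjusted p under 0.05. The median log2 difference of the members was 0.36, beside 0.03 over all genes.

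Anxa2 was at 59.4, 70.5 and 227 CPM in B7hi HDM and at 75.9, 37.1 and 55.0 CPM in B7low HDM. B7hi HDM 3 stood above all other HDM libraries and the remaining ones overlapped. The log2 difference was 1.13 (interval 0.16 to 2.11, edgeR adjusted p = 0.34), and it was 0.24 without B7hi HDM 3. S100a10 was at 112, 194 and 213 CPM in B7hi HDM and at 65.1, 82.6 and 113 CPM in B7low HDM, so that the groups overlapped narrowly (log2 difference 0.97, interval 0.30 to 1.64, edgeR adjusted p = 0.18).

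S100a11 differed by 0.57 (interval −0.12 to 1.25), Anxa5 by 0.21 (−0.38 to 0.80) and Anxa4 by 0.08 (−0.60 to 0.76) on the log2 scale. S100a6 varied most within groups, with 3.75, 7.83 and 27.4 CPM in B7hi HDM and 2.71, 3.25 and 20.9 CPM in B7low HDM. The highest value of each group was in replicate 3. Anxa1 was at 45.0, 78.3 and 79.5 CPM in B7hi HDM and at 186, 105 and 94.2 CPM in B7low HDM. All 3 B7hi libraries lay below all 3 B7low libraries, as for Anxa6 (214 to 284 against 287 to 309 CPM), but neither passed (log2 differences −0.92 and −0.30, adjusted p = 0.42 and 0.61). Of all tested genes, 10.7% had HDM ranges that did not overlap with B7hi lower.

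Averaged over both challenges with equal weight, the same 4 members were higher in B7hi: Anxa2 by 3.07 ± 0.46, S100a10 by 1.84 ± 0.285, S100a11 by 1.14 ± 0.28 and Anxa5 by 0.83 ± 0.24 (log2 ± SE, edgeR adjusted p = 0.0013, 5.4e-04, 0.015 and 0.035). Of all tested genes, 5.80% were called higher and 6.08% lower in this average, which reuses the libraries of the 2 comparisons above. S100a6 (1.58, adjusted p = 0.15) and Anxa1 (−0.75, adjusted p = 0.21) did not pass. Anxa5 lost its call when any 1 of 6 libraries was left out (adjusted p up to 0.235: B7hi saline 1, B7low saline 2, B7hi HDM 1 and 3, and B7low HDM 1 and 2), and S100a11 without B7hi saline 1 (0.075). Anxa2 lost its call with limma-voom (adjusted p = 0.060). Without both B7low saline 2 and B7hi HDM 2, 3 members passed, Anxa2 and S100a10 higher and Anxa1 lower (−1.16, adjusted p = 0.022).

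The response of B7hi cells to allergen is given by HDM against saline within B7hi. None of the 8 members passed the test with edgeR, DESeq2 or limma-voom, and 1 gene of 10533 did with edgeR (0.00949%). All 8 had a negative log2 difference, with a median of −0.93 beside 0.02 over all tested genes. For 5 of them the unadjusted p was under 0.05, where 4.13% of all genes had that, and for 6 the HDM libraries all lay below both saline libraries, where 10.4% of genes did. These differences share the B7hi saline libraries with the comparison of the populations in saline, so the 2 are not independent.

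Anxa2 was at 59.4 to 227 CPM in B7hi with HDM and at 254 and 407 CPM with saline, a log2 difference of −1.45 ± 0.52 (SE, edgeR adjusted p = 0.94). Without B7hi HDM 3, the library with the highest HDM level, it was −2.33 (adjusted p = 0.038). S100a10 went from 316 and 363 CPM to 112 to 213 CPM (−0.98, interval −1.70 to −0.26), S100a11 from 72.0 and 84.6 CPM to 27.5 to 48.9 CPM (−0.93, interval −1.65 to −0.21), Anxa5 from 269 and 481 CPM to 178 to 259 CPM (−0.74, −1.39 to −0.09) and Anxa6 from 327 and 398 CPM to 214 to 284 CPM (−0.58, −1.05 to −0.11). Their adjusted p-values were 0.973 to 0.999 (edgeR). Anxa1 was also lower in every HDM library than in either saline library (−0.94, interval −1.92 to 0.05). The groups overlapped for Anxa4 (−0.49) and S100a6 (−1.035).

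In B7low cells the members did not share a direction. None of the 8 passed with edgeR, DESeq2 or limma-voom, 1 had an unadjusted p under 0.05 (9.08% of all genes did) and the median log2 difference was 0.35. Called in all were 0.00949% of tested genes. The member with the low unadjusted p was Anxa2, at 5.25 and 15.1 CPM with saline and 37.1 to 75.9 CPM with HDM. All 3 HDM libraries lay above both saline libraries, as for 13.2% of all genes, and the log2 difference was 2.42 ± 0.77 (SE, edgeR adjusted p = 0.41). S100a10 differed by 0.76 (interval −0.07 to 1.59), Anxa5 by 0.50 (−0.19 to 1.19), S100a6 by 1.12 (−1.03 to 3.28), S100a11 by 0.20 and Anxa6 by 0.20. Anxa1 (−0.59) and Anxa4 (−0.69) were lower on average, with groups that overlapped.

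Whether the HDM difference itself differed between the populations was tested by the interaction, the HDM difference in B7hi minus that in B7low. No member passed with edgeR, and no gene of the 10533 did (0%). DESeq2 called 44 genes, among them 1 member, Anxa2 (adjusted p = 0.0051), and limma-voom called no member. In edgeR the interaction was −3.87 ± 0.93 for Anxa2 (SE, log2, adjusted p = 0.24, unadjusted p = 0.0014), −1.74 ± 0.56 for S100a10, −1.24 ± 0.485 for Anxa5 and −0.78 ± 0.35 for Anxa6. These 4 had an unadjusted p under 0.05, where 8.55% of all genes did. It was −1.13 for S100a11, −2.16 for S100a6, −0.35 for Anxa1 and 0.19 for Anxa4. Without B7hi HDM 3, Anxa2 passed (−4.71, adjusted p = 0.020).

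**Figure D4:**
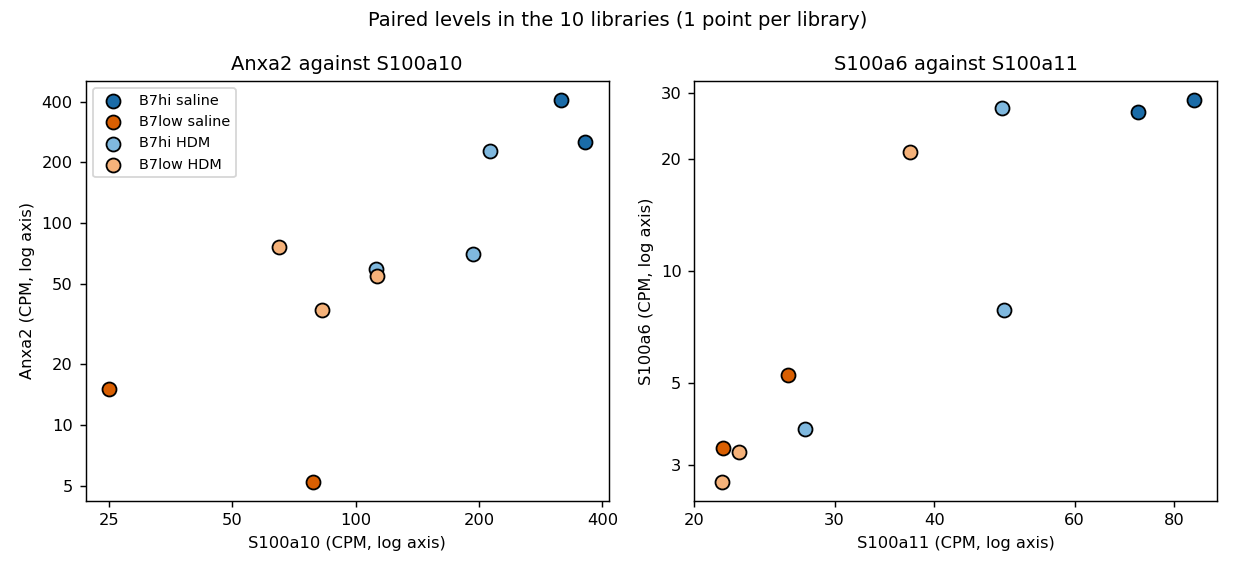
Anxa2 against S100a10 (left) and S100a6 against S100a11 (right) in CPM on log axes, 1 point per library, coloured by group. Both B7hi saline libraries lie at the upper right of each panel. B7low saline 1, at 5.25 CPM of Anxa2 and 78.7 CPM of S100a10, has the lowest Anxa2 level.

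Across the 10 libraries, S100a10 and S100a11 had the highest Pearson correlation of log2 CPM among the 28 pairs of tested members (0.92), followed by S100a6 with S100a11 (0.89) and Anxa5 with S100a10 (0.86). For Anxa2 with S100a10 it was 0.80. These values include the differences between groups and share library depth. With group means removed they were 0.75, 0.86, 0.60 and −0.18. The counts of Anxa2 ran from 0.067 times those of S100a10 in B7low saline 1 to 1.29 times in B7hi saline 2. The most similar genes outside the set, by the same correlation over 6062 genes, were Plp2, Emb and Tbcd for Anxa2 (0.98, 0.97 and 0.96) and Ifngr1, Angel2 and Os9 for S100a10 (0.98, 0.97 and 0.95). Plp2, a membrane protein of the endoplasmic reticulum, had group means of 84.8, 25.5, 53.6 and 45.1 CPM in B7hi saline, B7low saline, B7hi HDM and B7low HDM. Ifngr1, the ligand-binding chain of the interferon gamma receptor, had 437, 141, 265 and 174 CPM. For S100a6 the most similar were Klhdc3, Arhgap30 and Acaa2 (0.96, 0.93 and 0.92), and for Anxa1 Etfb, Trim8 and Rprd1b (0.91, 0.89 and 0.89).

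Anxa3, an annexin of neutrophil granules and endothelium, was found only in B7low HDM libraries, with 22, 2 and 3 counts (29.8, 1.30 and 1.90 CPM). The other 7 libraries had 0 counts. Over each group, the level in B7low HDM was at least 8.33-fold higher than in B7hi HDM and at least 2.73-fold higher than in B7low saline (against 3 counts over the group). Without B7low HDM 1, 5 counts are left. These are 1.91 times the level that 3 counts would give in B7hi HDM and 0.625 times that in B7low saline. Without that library the first bound therefore drops from 8.33-fold to 1.91-fold, and the second does not hold. B7low HDM 1, which held 22 of its 27 counts, also had the highest sums of B cell markers (595 CPM) and endothelial markers (453 CPM) of the 10 libraries, and their part in the result was not tested. In that group 6 of 6 endothelial and 6 of 6 B cell markers in the table had counts, and the sums ranged from 98.6 to 453 CPM and from 79.6 to 595 CPM. In B7hi HDM they ranged from 114 to 160 CPM and from 5.63 to 19.9 CPM, and in B7low saline, where the endothelial markers Cldn5 and Tie1 and the B cell factor Pax5 were at 0, from 59.4 to 174 CPM and from 19.2 to 40.1 CPM.

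Other members of the families gave little signal. Of 6 other annexins, Anxa7 was at group means of 77.5 to 91.8 CPM, Anxa11 at 22.5 to 34.4 CPM and Anxa9 at 2.58 to 9.21 CPM, and none passed in any comparison. Anxa10 had 3 counts in all, listed over 2 groups, and Anxa8 and Anxa13 had none. Of 12 other S100 genes, S100a1 (14.6 to 25.1 CPM) and S100a13 (13.4 to 23.7 CPM) passed the count filter and neither passed a test. S100a8, the abundant S100 protein of neutrophils, had 0 counts in all 10 libraries, and its partner S100a9 had 1 count. S100a5, S100a14, S100g and S100z had none, and S100a3, S100a7a, S100a16 and S100b had at most 5 counts in a library.

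The S100 genes of chromosome 3 form separate blocks. S100a11 (93520488 to 93526287) and S100a10 (93555080 to 93564643) lie 28792 bp apart on the same strand. S100a4 (90603771 to 90606045) and S100a6 (90612882 to 90624181) lie in the other block, between S100a3 and S100a7a with S100a5 between them. The blocks are 2824766 bp apart. In that block S100a1, S100a13, S100a4 and S100a6 gave counts in at least 7 libraries, while S100a3 and S100a5, the direct neighbours of S100a4 and S100a6, had 1 count and 0 counts.

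Receptors for these proteins were low or did not move with them. The formyl peptide receptors Fpr1, Fpr2 and Fpr3, through which annexin A1 acts, had 3, 6 and 2 counts in all, none in a B7hi library. Ager, a receptor for several S100 proteins, was at no more than 3.16 CPM. Tlr4, the endotoxin receptor to which S100A8 and S100A9 bind, was at 3.34 ± 0.45 CPM in B7hi saline and 20.7 ± 12.7 CPM in B7low saline (SD, n = 2 each), and at 6.24 ± 5.02 and 20.7 ± 6.30 CPM with HDM (SD, n = 3 each). It passed only in the average over both challenges (log2 difference −2.19, edgeR adjusted p = 0.021), and the basigin gene Bsg was at 95.3 to 123 CPM in all groups.

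Of 15 genes of membrane repair and annexin A2 binding, 10 were tested and 0 passed with saline or with HDM in edgeR. At an unadjusted p under 0.05 it was 0 with saline and 2 with HDM, where 21.2% and 13.6% of all tested genes had that. DESeq2 called 0 with saline and 1 with HDM. Ahnak, a giant scaffold that binds the annexin A2 complex, was at 704 ± 226 CPM in B7hi saline and 1184 ± 740 CPM in B7low saline (SD, n = 2 each), opposite in direction to Anxa2, with a log2 difference of −0.75 (edgeR adjusted p = 0.27), and averaged over both challenges it was lower in B7hi (−0.91, adjusted p = 0.022). Pdcd6ip, the ESCRT adaptor ALIX, differed by 0.68 (adjusted p = 0.29). With saline Ahnak passed without B7low saline 2 and Pdcd6ip without B7low saline 1, and with HDM Ahnak passed without either of those libraries. In the average the Ahnak call was lost without B7hi saline 2 or B7low saline 1. Of 8 genes of plasminogen activation, 5 were tested with saline, and 1 was higher and 1 lower in B7hi. Of all tested genes, 2.91% were called higher and 3.64% lower with saline. The urokinase Plau was at 3.72 ± 0.088 CPM in B7hi saline and 132 ± 61.0 CPM in B7low saline, and Eno1, a glycolytic enzyme that also binds plasminogen, at 42.9 ± 0.19 and 9.31 ± 5.75 CPM (SD, n = 2 each, edgeR adjusted p = 6.2e-04 and 0.031). With HDM Plau alone passed (−2.46, edgeR adjusted p = 0.012), a call lost without B7hi HDM 3, and 2.84% of all tested genes were called. The Eno1 call was lost without B7hi saline 1, B7hi saline 2 or B7low saline 1. It was also lost with limma-voom and with only the saline groups in the fit.

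A list of 12 S100 target genes held 10 of the cytoskeleton and the S100A6 partners Cacybp and Sugt1, and all were tested. With saline 3 were called, each higher in B7hi, where 2.91% of all tested genes were called higher. The median log2 difference of the 12 was 0.67, beside 0.03 over all genes. The called genes were Tpm4, a tropomyosin (327 ± 83.2 against 68.0 ± 32.4 CPM), Myh9, the non-muscle myosin heavy chain bound by S100A4 (196 ± 25.7 against 50.1 ± 23.8 CPM), and the actin Actg1 (5104 ± 495 against 1825 ± 519 CPM, SD, n = 2 each). Their log2 differences were 2.26, 1.96 and 1.48 (edgeR adjusted p = 0.0013, 0.0046 and 0.0045). Leaving out B7hi saline 1, B7low saline 1 or the pair B7low saline 2 and B7hi HDM 2 left 2 calls, and scaling by library size alone gave 6. With HDM 0 of 12 passed with edgeR, and 1, Actg1, passed with DESeq2 and with limma-voom. At an unadjusted p under 0.05 it was 2 of 12 (edgeR), where 13.6% of all tested genes had that. Averaged over both challenges 5 were called higher, Tpm4, Actg1, Myh9, Actb (0.64, edgeR adjusted p = 0.027) and Myl12a (0.73, adjusted p = 0.040). Of all tested genes, 5.80% were called higher in this average.

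Glucocorticoid response genes were followed because Anxa1 is a known member of that response. With saline 4 of 11 tested were lower in B7hi and 0 higher, where 3.64% of all tested genes were called lower and 2.91% higher. Tsc22d3, the mediator GILZ, had a mean of 281 ± 48.2 CPM in B7hi saline and of 793 ± 287 CPM in B7low saline (SD over 2 libraries). Its log2 difference was −1.50 (edgeR adjusted p = 0.0060). Mt1, a metallothionein, differed by −2.45 (adjusted p = 0.018), and the remaining 2 were Cited2 and Sgk1. Leaving out B7low saline 1, or fitting the saline groups alone, left 0 of these calls. Leaving out B7hi saline 1 left 1 (Sgk1) and B7hi saline 2 left 2, and the pair B7low saline 2 and B7hi HDM 2 left 2 lower and 1 higher. With HDM 2 were lower, Tsc22d3 (−1.59, edgeR adjusted p = 0.0014) and the kinase Sgk1 (−1.60, adjusted p = 0.0052), where 2.84% of all tested genes were called. Zbtb16, a glucocorticoid-induced zinc finger factor, went the other way, at 24.7 ± 2.46 against 4.18 ± 5.91 CPM with saline (SD over 2 libraries, log2 difference 2.51, adjusted p = 0.098). Averaged over both challenges it was the 1 gene of the list called higher (2.27, adjusted p = 0.012, edgeR), beside 4 called lower. Of all tested genes, 5.80% were called higher and 6.08% lower in this average. Of 13 other genes of EF-hand and related calcium-binding proteins, 12 were tested, and the actin bundler Lcp1 was the 1 called with saline (1042 ± 54.6 against 516 ± 72.0 CPM, SD, n = 2 each, log2 difference 1.01, adjusted p = 0.030). That call was lost without any 1 of the saline libraries. Rcn2 differed by −0.94 with saline (edgeR adjusted p = 0.12). In the average over both challenges it was called lower (−0.92, adjusted p = 0.013). Called higher there were Lcp1 (0.80, adjusted p = 0.0054), Chp1 (0.70, adjusted p = 0.038) and Cib1 (0.81, adjusted p = 0.047). Among the alternatives the Cib1 call held only with library size alone. The Chp1 call was lost when any 1 library other than B7hi HDM 2 or B7low HDM 3 was left out. It was also lost without the pair B7low saline 2 and B7hi HDM 2. The Rcn2 call was lost without B7hi saline 2.

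Markers of other cell types that express these genes were summed beside the results. Of 8 epithelial markers, 5 had counts in B7hi saline and 2 in B7low saline, with sums of 137 to 188 CPM and 10.5 to 26.8 CPM, and of 73.8 to 138 and 57.9 to 129 CPM in B7hi and B7low with HDM. The part of these cells in the Anxa2 and S100a10 results was not tested. Cdh1, E-cadherin, made up most of the sum in every library except B7low HDM 3. There it was at 61.9 CPM and the other 7 markers summed to 67.0 CPM, with Sftpc at 39.8 CPM. The other 7 markers summed to 11.3 to 12.5 CPM in B7hi saline and 0 to 8.36 CPM in B7low saline. With HDM they summed to 6.25 to 17.6 CPM in B7hi and 8.13 to 67.0 CPM in B7low. Epcam was at most 0.52 CPM in B7hi saline, and Krt8, Sftpc and Foxj1 were at 0 there. In the same direction as Cdh1, Krt18 was at 10.6 and 9.40 CPM in B7hi saline and at 0 in both B7low saline libraries. Its log2 difference with saline was 6.58 (edgeR adjusted p = 0.081). Neutrophil markers summed to 9.48 to 68.6 CPM, with S100a8 at 0 throughout, and macrophage and monocyte markers to at most 13.6 CPM, with C1qa and C1qb at 0 in every library. T cell markers summed to 105 to 205 CPM in B7hi saline and 112 to 150.5 CPM in B7low saline. Basophil markers, 5 of 5 with counts in every group, summed to 1644 and 2144 CPM in B7hi saline and to 1180 and 1517 CPM in B7low saline. Mcpt8 was at 691 and 837 CPM in B7hi saline and at 57.7 and 189 CPM in B7low saline, and Ifitm1 at 863 and 1242 CPM and at 50.7 and 293 CPM. Both were called higher in B7hi in the average (log2 differences 2.37 and 1.85, edgeR adjusted p = 0.012 and 0.022). Prss34 and Cd200r3 had the opposite order, with Prss34 at 2.27 and 8.35 CPM in B7hi saline and at 549 and 532 CPM in B7low saline. The part of basophils in the members' results was not tested.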

How the data were processed

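The deposited table gives raw counts as whole numbers for each gene symbol and each of the 10 libraries. Per the labels' protocols, poly(A)+ RNA was amplified by SmartSeq2 and sequenced as paired reads of 25 bases. Named in the submitters' processing notes are mm10, DESeq2, Cufflinks 2.2.1 and TopHat2 2.0.10. The counting method, its annotation and any use of strand were not found in the available descriptions. Of the 25-base sequences in Anxa2 transcripts, 2.02% also occur in its antisense partner Gm16144. If strand was not used, Anxa2 and Gm16144 cannot be told apart within that shared part. After filterByExpr (10533 genes), TMM factors and a quasi-likelihood model in edgeR 4.0.16 under R 4.3.3 gave 1 mean per group from all 10 libraries. The spread was pooled across groups. Two-sided tests were made for 6 contrasts, with Benjamini-Hochberg adjustment over all tested genes. SE was taken as the absolute log2 difference divided by the root of F, and intervals are 1.96 SE on each side. Exon lengths and coordinates are from GENCODE M21 (GRCm38, the assembly called mm10) and promoters from RefSeq.

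Groups and replicate numbers came from sample titles. Within-group pairs of libraries differed by more than counting noise (chi-square per degree of freedom 7.08 to 12.2), and each was counted as its own replicate. That spread does not show whether replicates were separate animals or pools. Named were all 10 members, other family members by level, up to 2 genes with the smallest p of each list, called list members, and the 3 most similar genes (mean of at least 20 CPM) for Anxa1, Anxa2, S100a6 and S100a10. The members and lists were chosen with earlier results of these data known. Alternatives were other scalings, DESeq2 1.42.0, limma-voom (limma 3.58.1), other count filters (none, or at least 5 CPM in 2 libraries), only the groups compared, a replicate block, removal of the ribosomal RNA precursor Rn45s, and leaving out libraries.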

Additional observations from a re-analysis of the deposited data

How the results depend on the processing

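The number of members called between the populations with saline (4) was 2 with limma-voom, 2 with only the groups compared and 2 without both B7low saline 2 and B7hi HDM 2, and 2 to 4 when 1 library was left out. With no count filter it was 3 with HDM (Anxa2, Anxa3 and S100a10), 1 each for HDM in B7hi and in B7low (Anxa2) and 2 for the interaction, for which DESeq2 called 1. Leaving out 1 library gave 0 to 1 for HDM in B7hi, 0 to 1 for the interaction and 2 to 5 for the averaged comparison.

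Signs turned for small log2 differences. With library size alone, Anxa4 was 0.15 with saline, −0.099 in the interaction and 0.0997 in the average (0.025 with no filter). Without both B7low saline 2 and B7hi HDM 2, Anxa4 was −0.040 with HDM, Anxa6 −0.0030 for HDM in B7low and −0.018 in the average, and Anxa1 0.22 in the interaction. Leaving out 1 library gave −1.25 to 0.84 for Anxa1 and −0.77 to 0.34 for Anxa4 with saline, −0.13 to 0.41 for Anxa4 and −0.80 to 2.09 for S100a6 with HDM, and −0.95 to 0.17 for Anxa4 for HDM in B7hi. For HDM in B7low it gave −1.27 to 0.82 for Anxa1, −0.51 to 1.52 for S100a6 and −0.14 to 0.39 for S100a11. In the interaction it gave −1.78 to 0.32 for Anxa1 and −0.25 to 0.84 for Anxa4, and in the average −0.35 to 0.21 for Anxa4 and −0.0067 to 0.22 for Anxa6. The cause was not tested.

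Whether same-numbered libraries were paired could not be decided. Their correlations of deviations were −0.11 to 0.19, with 4 of 13 over 0.1. For pairs with different numbers they were −0.24 to 0.24, with 3 of 24 over 0.1. In groups of 2 libraries the deviations mirror each other, which fixes many of these values. With the replicate number as a block, 5 members passed with saline and 5 in the average (S100a6 added) and 0 elsewhere, and for HDM in B7low S100a6 was −0.39 and S100a11 −0.046. Over all genes, the saline count of 689 was 226 to 685 without 1 library, 370 with only those groups and 1078 with no filter. The HDM count of 299 was 137 to 368 without 1 library, 507 with DESeq2 and 548 with no filter. Library size alone moved the median log2 difference of all genes with saline from 0.03 to 0.30 and the share of higher calls from 44.4% to 67.9%, and DESeq2 size factors moved that share to 36.9%. Low depth in B7low saline limits Anxa2, S100a6 and S100a4, which rest there on 9 counts or fewer per library.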
